A study of Mus musculus with 6 samples.

Results

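The renin-angiotensin system was followed in mouse lung through 6 of its genes, Agt, Ace, Enpep, Agtr1a, Agtr2 and Mas1. They were taken by symbol from a table of 41388 genes, and all 6 were present in it. Lung RNA was sequenced from adult mice at ZT7, 7 h after lights on in a 12 h light and 12 h dark cycle, with no treatment. The KO group (3 libraries) came from the strain B6.129S7-Zpbp2tmZuk/Mmjax, which lacks exons 1 to 3 of Zpbp2 on a C57BL/6J background, and the WT group (3 libraries) was C57BL/6J kept in the same colony. The deletion is constitutive, so every cell of the lung and every other organ carried it. By the study's account each library came from 1 mouse, and it compared the genotypes to learn which lung genes change when the Zpbp2 region is removed.

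The renin-angiotensin system turns a circulating protein into short peptides that set vessel tone, salt balance and tissue repair. Angiotensinogen (Agt) is cut by renin to angiotensin I, angiotensin converting enzyme (Ace) trims angiotensin I to angiotensin II, and aminopeptidase A (Enpep) removes the first residue of angiotensin II. The peptides act on the type 1 receptor (Agtr1a and Agtr1b in mice), the type 2 receptor (Agtr2) and, for angiotensin 1-7, on Mas (Mas1). Lung is known for its Ace, which sits on the capillary endothelium and meets the whole cardiac output.

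The stretch of Agt that is cut, and the zinc-binding site of Ace and Enpep, are shown because the genes are ordered below by their place in that cascade. In the coding strand of Agt (chr8:124564438-124564488, GRCm38, minus strand, read from a GENCODE M21 transcript), the 8 codons in capitals encode angiotensin II. Enpep removes the residue of the first of them. The next 2 codons encode the pair of residues that Ace removes.

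Agt: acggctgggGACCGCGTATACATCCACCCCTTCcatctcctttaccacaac

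Ace and Enpep are zinc peptidases and carry the HEXXH motif, whose 5 codons are in capitals below. It was searched in frame in the coding sequence of each gene, on the coding strand. Among other peptidases of the lists used, Anpep, Lnpep, Mme, Rnpep, Nln and Thop1 held 1 copy each. It was not found in Dpp3, Prep, Prcp, Cpa3, Mcpt4 and Cma1. Ace held 2 copies, 1 in each catalytic domain, at chr11:105972898-105972936 and chr11:105985082-105985120 on the plus strand. The stretch of Enpep, a minus-strand gene on chr3, is spliced from more than 1 exon. The motif occurred in 709 of 21782 coding genes (3.25%), so a match describes a sequence and does not by itself mark an enzyme of this system.

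Ace, first copy: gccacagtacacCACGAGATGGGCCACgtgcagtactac
Ace, second copy: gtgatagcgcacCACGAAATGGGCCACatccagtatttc
Enpep: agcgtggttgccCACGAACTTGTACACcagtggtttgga

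Total counts were 59134950 to 71354388 per library. Zpbp2 had 20, 15 and 7 counts in WT1 to WT3 and 1, 0 and 0 in KO1 to KO3, which fits the labels. The lung label was checked on Sftpc, the surfactant gene of alveolar type 2 cells, which stood at 12096 CPM or more in every library. CPM is the count scaled to library depth after TMM scaling, on which 3 counts were 0.0409 to 0.0513 CPM. KO2 and KO3 differed by little more than counting noise (the median squared difference over genes was 1.71 times that of counting for the least and 3.37 times for the most abundant genes, against 1.85 and 53.1 times between WT1 and WT2). Whether they come from different animals could not be told, so their counts were added and used as 1 KO sample, which leaves 3 WT and 2 KO samples. WT3 and KO1 stood apart from the other libraries. Their 15 squamous epithelium markers summed to 4857 and 9274 CPM, against 9.07 to 14.97 CPM elsewhere. Fold changes without these libraries are given for Agt, Ace, Enpep and Agtr1a.

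None of the 5 listed genes that could be tested passed an adjusted p of 0.05 in edgeR's quasi-likelihood test, the rule for a called gene here, and Mas1 had too few counts for a test. The background was 426 called genes of 18660 tested (2.28%). At an unadjusted p of 0.05 or less 1 listed gene passed, Agt, and 5092 of all tested genes did. DESeq2 called 1 listed gene, also Agt, where it called 21% of all tested genes, and edgeR's exact test called 0, where it called 1.12%. The median log2 fold change, KO against WT, was -0.24 over the 5 tested genes and 0.02 over all tested genes. Every KO library was below every WT library for 1 of the 5, again Agt, where 20.7% of all tested genes showed that order, and 0 of the 5 showed the opposite order, where 20.1% of all tested genes did.

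**Figure D1:**
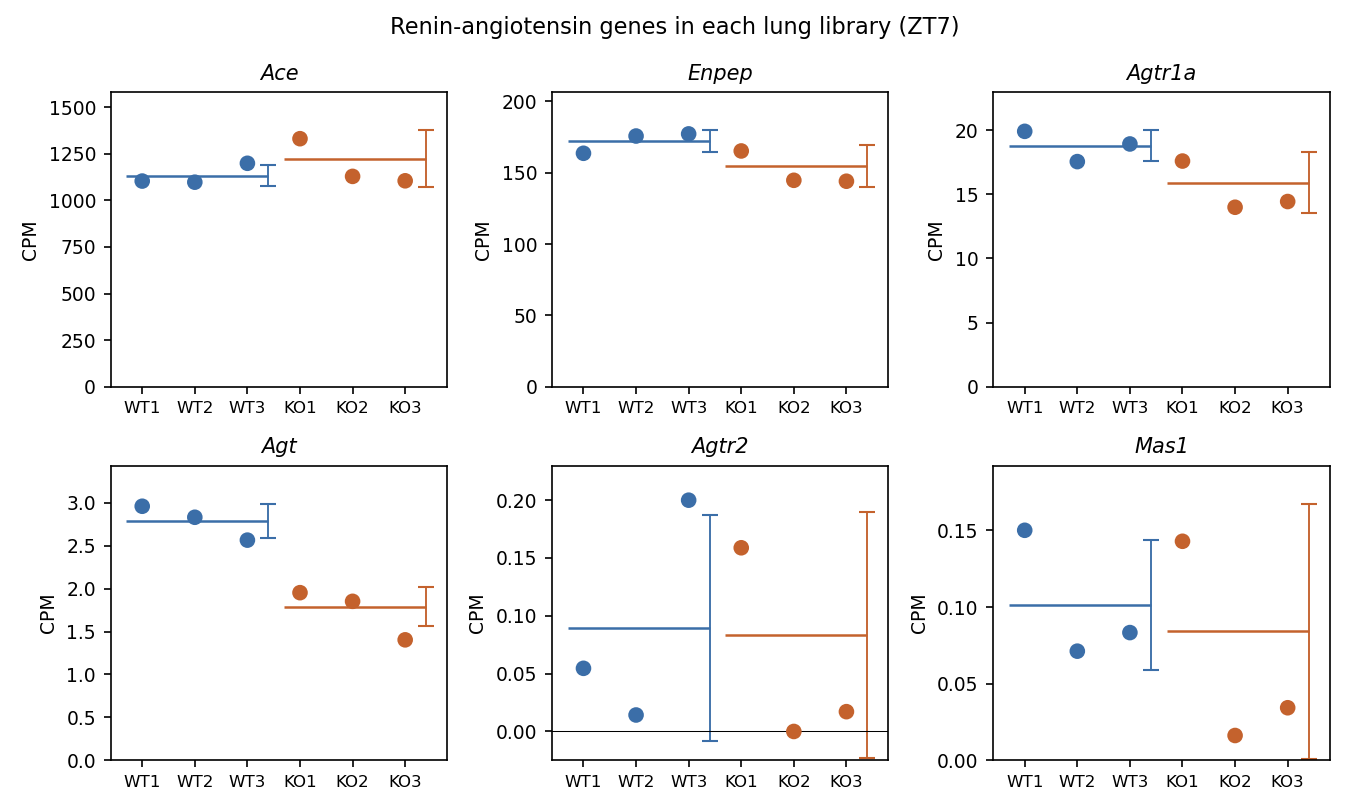
Expression of the 6 listed genes in CPM (y axis, linear, a separate scale for each gene) in the 3 WT (blue) and 3 KO (orange) lung libraries. Each point is 1 library, lines are group means and bars are 1 SD (WT n = 3; KO n = 2, with the mean of KO2 and KO3 as 1 sample). Agt is the gene whose groups do not overlap, and Agtr2 and Mas1 stay at or below 0.20 CPM.

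The listed genes spanned a wide range of levels. Per kilobase of exon, the WT mean was 214 RPKM (CPM divided by the exon length in kilobases) for Ace, 36.6 for Enpep, 6.74 for Agtr1a, 1.47 for Agt, 0.0388 for Mas1 and 0.0269 for Agtr2. The KO means ran in the same order, at 231, 32.9, 5.71, 0.947, 0.0321 and 0.0252 RPKM. The first 4 genes kept this order in each of the 6 libraries, with no overlap between neighbours. Mas1 and Agtr2 overlapped and could not be ranked. The converting enzyme thus stood far above the precursor Agt and above the 3 listed receptors in lung RNA. Scaled by the longest transcript instead of all exons, the WT levels were 231 RPKM for Ace, 41.2 for Enpep and 8.54 for Agtr1a.

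Agt, the precursor of all angiotensins, is made mainly by liver and also by fat and other tissues. The gene (ENSMUSG00000031980, chr8:124556534-124569706, minus strand) had 217, 199 and 154 counts in WT1 to WT3 and 123, 115 and 82 in KO1 to KO3. In CPM this was 2.96, 2.83 and 2.57 in WT and 1.95, 1.85 and 1.40 in KO. All 3 KO libraries lay below all 3 WT libraries, and the lowest WT library stood above the highest KO library.

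The WT mean of Agt was 2.79 ± 0.20 CPM (SD, n = 3) and the KO mean 1.79 ± 0.23 CPM (SD, n = 2). The fitted KO level was 0.645 times the WT level, a log2 fold change of -0.63 (SE 0.16, 95% interval -1.04 to -0.22), with an unadjusted p of 0.0104 and an adjusted p of 0.0884 in edgeR's quasi-likelihood test. The call depended on how the libraries were used. With KO2 and KO3 kept as separate samples the value was -0.68 with an adjusted p of 0.0347, but 18.9% of all tested genes were called in that fit, 9.07% as lower in KO. DESeq2 gave -0.65 with an adjusted p of 0.00903 and called 21% of all tested genes. Without WT3 and KO1 it was -0.83 (adjusted p 0.0392), in a fit that called 11.9% of all tested genes and whose only KO sample, KO2 and KO3 together, was assumed to vary like WT1 and WT2.

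Markers of fat and liver cells, both known for Agt, were set beside it. The 12 adipocyte markers summed to 1075 to 1691 CPM in the WT libraries and to 277 to 423 CPM in the KO libraries, all 12 were lower in every KO library (20.7% of all tested genes), and 4 of them were called lower (Pck1, Plin1, Plin4 and Lipe; 0.906% of all tested genes). None of the 12 was at 0 in any library. Within KO the adipocyte sum rose from KO1 (277 CPM) to KO3 (423 CPM), while Agt fell from KO1 (1.95 CPM) to KO3 (1.40 CPM). In WT the sum was highest in WT2 and Agt in WT1, and both were lowest in WT3. The 12 hepatocyte markers summed to 78.9 to 84.0 CPM in WT and to 90.0, 147 and 149 CPM in KO1 to KO3. Of the 11 that were tested all had a positive log2 fold change and 0 were called by edgeR's quasi-likelihood test, with 8 at an unadjusted p of 0.05 or less (27.3% of all tested genes). Fgb was at 0 in WT1 and WT3, Ttr in WT3 and Serpina1a in WT2. Trf alone made up most of the hepatocyte sums, at 75.0 to 79.2 CPM in WT and at 82.2, 96.8 and 99.5 CPM in KO1 to KO3. Albumin (Alb) was at 0.967 to 1.27 CPM in WT and at 3.07, 24.02 and 24.9 CPM in KO1 to KO3. The part of these cells in the Agt difference was not tested, and in whole lung fewer cells of a type and less RNA per cell cannot be told apart.

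**Figure D2:**
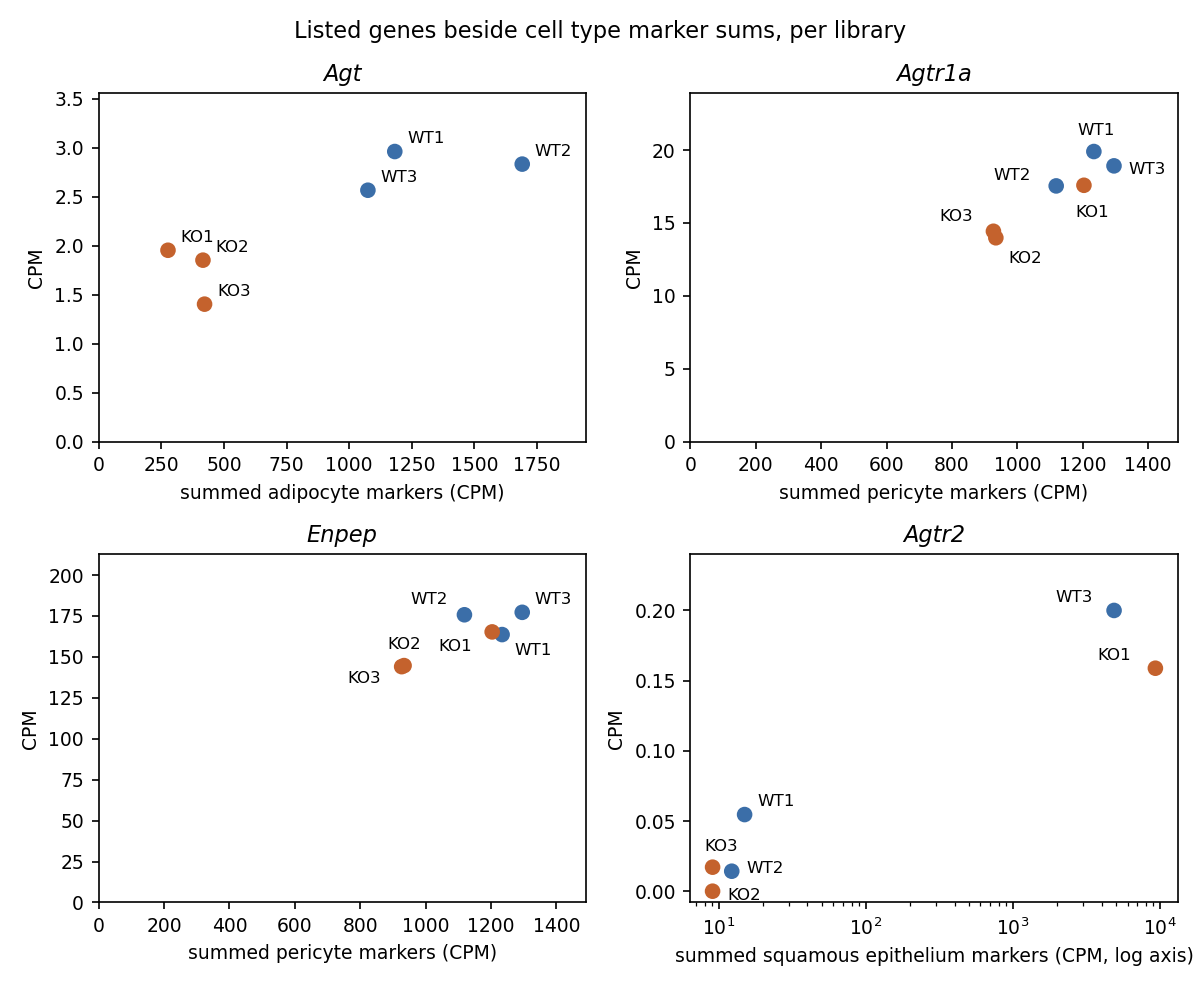
Level of a listed gene (CPM, y axis) against the summed CPM of a cell type's markers (x axis, linear except for squamous epithelium, where it is a log axis), 1 point per library, WT in blue and KO in orange. Agt is shown beside adipocyte, Agtr1a and Enpep beside pericyte and Agtr2 beside squamous epithelium markers. Agt and the adipocyte sum separate the genotypes, but within KO they run in opposite order. KO2 and KO3 are lowest for Agtr1a, Enpep and the pericyte sum, and WT3 and KO1 are highest for Agtr2 and the squamous sum.

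Renin itself was close to absent from these lungs. Ren1, which is made chiefly in the kidney, had counts of 8, 2 and 2 in the WT libraries and of 6, 0 and 0 in the KO libraries, and was not tested. A count of 0 allows up to 0.0483 CPM in KO2 and 0.0513 CPM in KO3 (3 counts, counting error only). Ren2 was looked for by symbol and was not among the genes counted.

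Ace was by far the most abundant of the listed genes. The gene (ENSMUSG00000020681, chr11:105967945-105989964, plus strand) lies 7.41 Mb from Zpbp2 on the same chromosome. It was at 1103, 1097 and 1199 CPM in WT1 to WT3 and at 1331, 1129 and 1105 CPM in KO1 to KO3. KO1 was the highest library and KO2 and KO3 lay within the WT range, so the groups overlapped.

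The means of Ace were 1133 ± 56.9 CPM in WT (SD, n = 3) and 1224 ± 151 CPM in KO (SD, n = 2). The log2 fold change was 0.11 (SE 0.09, 95% interval -0.12 to 0.35), with an adjusted p of 0.487 in edgeR's quasi-likelihood test. Without KO1 it was -0.02 and without WT3 and KO1 0.02, each with 1 KO sample left, so its sign was not settled. The interval leaves room for a KO level between slightly lower and moderately higher than WT. RefSeq (GRCm38.p6) lists 2 start sites for Ace, at chr11:105967948 and chr11:105975189, the second being that of the short testis form, and counts per gene do not separate the transcripts. The antisense gene Gm11651 shares 295 bases of exon with Ace.

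Endothelial markers were set beside Ace, since lung Ace is known from these cells. The 14 endothelial markers summed to 5437 to 5631 CPM in WT and to 6320, 5361 and 5355 CPM in KO1 to KO3, with KO1 highest here too. None of the 14 was called by edgeR's quasi-likelihood test (9 were at an unadjusted p of 0.05 or less, 7 higher and 2 lower in KO, where 27.3% of all tested genes were), none was at 0, and their median log2 fold change was 0.15. Ramp2 was at 264, 271 and 297 CPM in WT and 431, 359 and 360 CPM in KO, while Tek was at 400 to 424 CPM in WT and 335 to 382 CPM in KO. Every KO library was above every WT library for 7 of the 14 and below for 2, where 20.1% and 20.7% of all tested genes showed these orders. The part of endothelial content in the Ace values was not tested.

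Enpep, which turns angiotensin II into angiotensin III, was the second most abundant of the listed genes and is found on pericytes. The gene (ENSMUSG00000028024, chr3:129269175-129332720, minus strand) was at 164, 176 and 177 CPM in WT1 to WT3 and at 165, 145 and 144 CPM in KO1 to KO3. KO2 and KO3 were the lowest, and KO1 lay just above WT1.

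The means of Enpep were 172 ± 7.46 CPM in WT (SD, n = 3) and 155 ± 14.8 CPM in KO (SD, n = 2). The log2 fold change was -0.15 (SE 0.08, 95% interval -0.34 to 0.04), with an adjusted p of 0.275 in edgeR's quasi-likelihood test. Without WT3 and KO1, which leaves 1 KO sample, it was -0.24. The ratio of Ace to Enpep in CPM was 6.74, 6.24 and 6.76 in WT and 8.05, 7.80 and 7.67 in KO. Every KO ratio was above every WT ratio, with means of 7.89 ± 0.22 (SD, n = 2) and 6.58 ± 0.29 (SD, n = 3). Neither gene was called, and 20.1% of all tested genes had every KO library above every WT library. The share of gene pairs with such an order was not computed. A two-sided exact permutation test of 3 against 2 samples that doubles the smaller tail cannot go below 0.2, and the ratio is given as a description.

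Agtr1a encodes the receptor through which angiotensin II constricts vessels, and was the most abundant of the listed receptors. The gene (ENSMUSG00000049115, chr13:30336441-30382867, plus strand) was at 19.9, 17.5 and 18.9 CPM in WT1 to WT3 and at 17.6, 14.0 and 14.4 CPM in KO1 to KO3. KO1 lay within the WT range, close to WT2, and KO2 and KO3 were below it. The means were 18.8 ± 1.18 CPM (SD, n = 3) and 15.9 ± 2.39 CPM (SD, n = 2).

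The log2 fold change of Agtr1a was -0.24 (SE 0.12, 95% interval -0.54 to 0.06), with an adjusted p of 0.267 in edgeR's quasi-likelihood test. Without WT3 and KO1, which leaves 1 KO sample, it was -0.40. Its paralog Agtr1b, the other type 1 receptor gene of the mouse, was at 0.333 to 0.584 CPM in WT and 0.411 to 0.548 CPM in KO, with a log2 fold change of 0.02 (SE 0.30). In lung the type 1 receptor RNA was therefore nearly all Agtr1a, at 6.74 RPKM against 0.210 RPKM in WT.

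Enpep and Agtr1a were set beside pericyte markers, since both are known from mural cells. The 11 pericyte markers summed to 1119 to 1295 CPM in WT and to 1203, 934 and 927 CPM in KO1 to KO3, so KO2 and KO3 were lowest for the markers and for both genes. None of the 11 was called by edgeR's quasi-likelihood test, 3 were at an unadjusted p of 0.05 or less (2 lower and 1 higher in KO, where 27.3% of all tested genes were), none was at 0, and their median log2 fold change was -0.18. By fold change Rgs5 showed the widest gap, at 36.3 to 41.1 CPM in WT, while KO1 had 34.1 CPM, KO2 11.6 and KO3 12.7. Higd1b went the other way, at 24.6 to 24.7 CPM in WT and 27.4 to 28.2 CPM in KO. The 7 erythroid markers, none of them at 0, also set KO2 and KO3 apart, with sums of 18991 and 19727 CPM against 2401 to 5519 CPM in the other libraries. The 8 smooth muscle markers summed to 1449, 1048 and 1672 CPM in WT1 to WT3 and to 1974, 1225 and 1227 CPM in KO1 to KO3. Here WT2 was lowest, no marker was called by edgeR's quasi-likelihood test, and the median log2 fold change was 0.21. The part of pericyte, smooth muscle or blood content in the Enpep and Agtr1a values was not tested.

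Agtr2, the receptor that counters many type 1 responses, was near the limit of detection. The gene (ENSMUSG00000068122, chrX:21484544-21489164, plus strand) had 4, 1 and 12 counts in WT1 to WT3 and 10, 0 and 1 in KO1 to KO3. WT3 and KO1, the libraries with squamous epithelium RNA, held most of them, at 0.20 and 0.159 CPM, and only through these did the gene pass the filter on low counts. Of the 15 squamous markers Krt6a, Dsg3, Gsdma, Gsdmc and Sprr3 were at 0 in at least 1 of the other libraries. The log2 fold change of Agtr2 was -0.25 (SE 1.40, 95% interval -3.83 to 3.32), with an adjusted p of 0.927 in edgeR's quasi-likelihood test. Without KO1 it was -3.17 and without KO2 and KO3 0.87, so the direction rested on single libraries. A difference between genotypes was not detectable at this depth, and the part of the squamous tissue was not tested.

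Mas1 was as low. The gene (ENSMUSG00000068037, chr17:12841079-12868143, minus strand) had 11, 5 and 5 counts in WT1 to WT3 and 9, 1 and 2 in KO1 to KO3, or 0.0712 to 0.150 CPM in WT and 0.0161 to 0.143 CPM in KO. KO1 lay within the WT range and KO2 and KO3 below it. It failed the filter on low counts. Without that filter its log2 fold change was -0.44 with an adjusted p of 0.801 in edgeR's quasi-likelihood test. Mas1 overlaps Airn, a gene of the opposite strand with which it shares 0 bases of exon, and whether the counts used strand was not given in the sources used here. Mrgprd, a second receptor for peptides of the angiotensin 1-7 branch, had 1 count, in WT3.

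The wider system held 25 more genes on the list used, of which 24 were in the table and 21 were tested. Of these 2 were called, both lower in KO (0.906% of all tested genes were called lower), and 0 were called higher by edgeR's quasi-likelihood test. At an unadjusted p of 0.05 or less 5 were lower and 2 higher, where 27.3% of all tested genes passed. Their median log2 fold change was 0.00 after rounding. Every KO library was below every WT library for 6 of the 21 and above for 3, where 20.7% and 20.1% of all tested genes showed these orders. With KO2 and KO3 as separate samples 5 were called lower and 1 higher, where 18.9% of all tested genes were called and 9.07% were called lower.

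**Figure D3:**
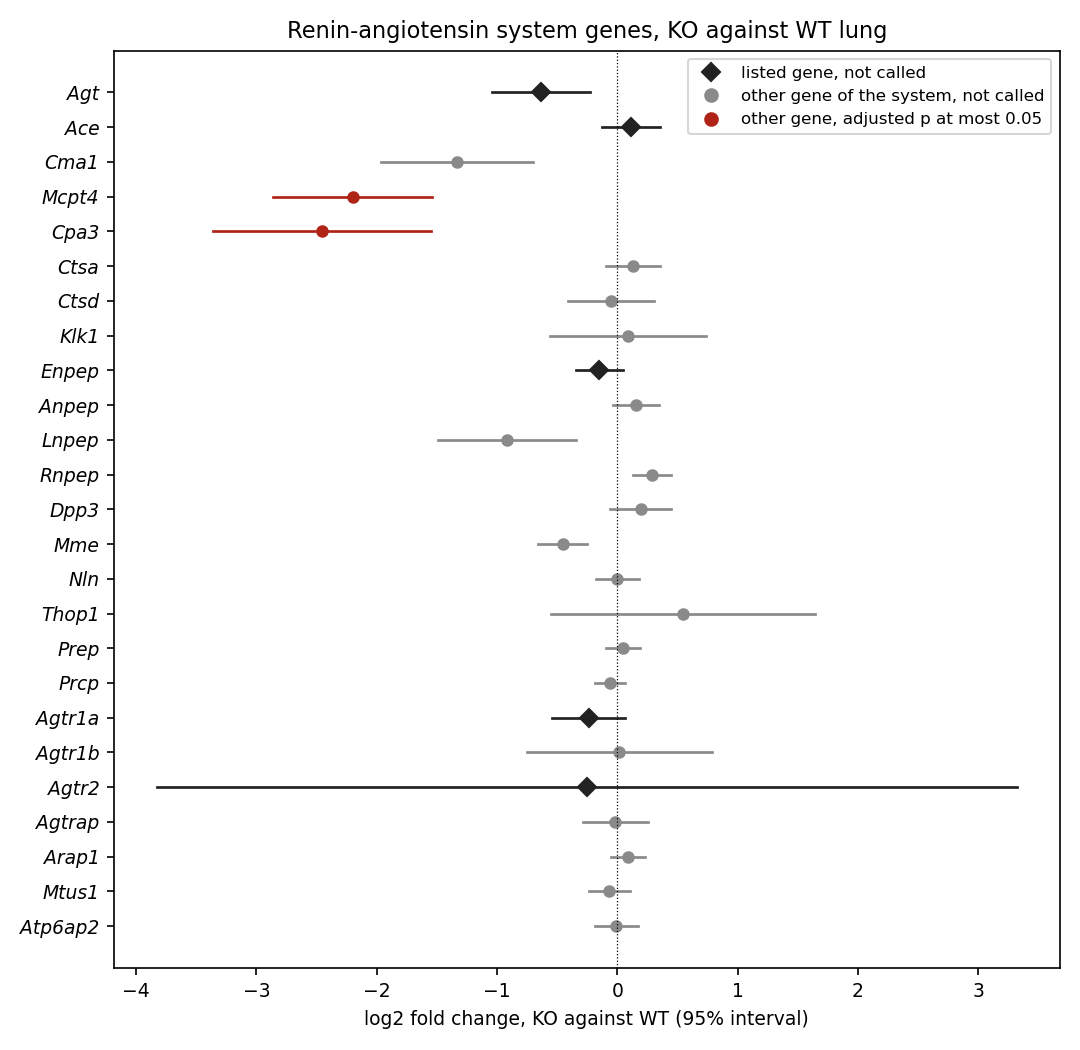
Log2 fold change, KO against WT (x axis), with its 95% interval for 25 of the tested genes of the renin-angiotensin system, from top to bottom the precursor, the enzymes and the receptors with their partners. Diamonds are listed genes, circles the others, and red marks an adjusted p of at most 0.05. The called genes Mcpt4 and Cpa3 and the uncalled Cma1 lie below -1, and the interval of Agtr2 runs from -3.83 to 3.32.

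Both called genes were mast cell proteases. Mcpt4 encodes the mouse chymase closest in activity to human chymase, which makes angiotensin II from angiotensin I without Ace. It was at 2.74, 4.33 and 4.08 CPM in WT1 to WT3 and at 0.762, 0.870 and 0.822 CPM in KO1 to KO3. The groups were far apart, with a log2 fold change of -2.20 (SE 0.26), a 4.59-fold lower level in KO, and an adjusted p of 0.0446 in edgeR's quasi-likelihood test. Cpa3, the mast cell carboxypeptidase, which trims angiotensin I and other peptides, was at 2.07, 4.19 and 2.83 CPM in WT and at 0.524, 0.709 and 0.428 CPM in KO. Its log2 fold change was -2.46 (SE 0.36), a 5.48-fold lower level in KO, with an adjusted p of 0.0474.

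Cma1, another mast cell chymase, was at 3.43, 5.23 and 3.78 CPM in WT and at 1.45, 1.61 and 2.05 CPM in KO. Every KO library was lower, the log2 fold change was -1.33 (SE 0.25), and the adjusted p of 0.0578 missed the threshold. Ctsg, a further protease that can make angiotensin II, had 2, 11 and 7 counts in WT1 to WT3 and 3, 1 and 0 in KO1 to KO3 and was not tested. Chymase genes are close relatives in 1 cluster on chr14, and how the counting treated reads shared between them was not tested.

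Other mast cell markers were set beside these proteases. Of the 9 markers, which include Mcpt4, Cma1 and Cpa3, 8 had a negative log2 fold change and 3 were called lower (0.906% of all tested genes), the third being the tryptase Tpsb2. The exception was Hdc, which makes histamine, at 84.6, 85.7 and 88.3 CPM in WT and at 99.0, 106 and 108 CPM in KO, with a log2 fold change of 0.26 and an adjusted p of 0.0704. Tpsb2 was at 3.15, 4.87 and 4.03 CPM in WT and at 0.794, 1.05 and 0.976 CPM in KO, with an adjusted p of 0.0446, and its near-identical neighbour Tpsab1 was at 0.185 to 0.30 CPM in WT and 0.0318 to 0.0806 CPM in KO. The IgE receptor chain Fcer1a was at 0.314 to 0.550 CPM in WT and at 0.137 to 0.222 CPM in KO, and Ms4a2 at 0.60 to 0.769 CPM and 0.428 to 0.492 CPM. Kit and Hdc, which other lung cells also express, made up most of the summed level, which was 329 to 354 CPM in WT and 332 to 338 CPM in KO. None of the 9 was at 0. Fewer mast cells and less protease RNA per mast cell cannot be told apart here.

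**Figure D4:**
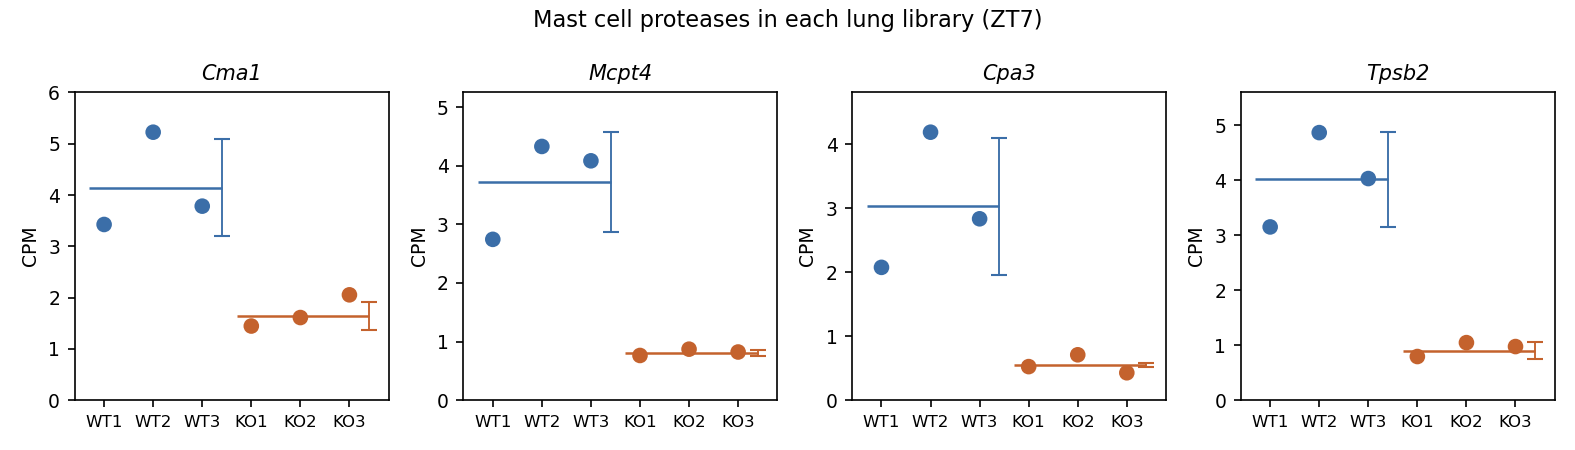
Expression (CPM, y axis, linear, a separate scale for each gene) of the chymases Cma1 and Mcpt4, the carboxypeptidase Cpa3 and the tryptase Tpsb2 in the 3 WT (blue) and 3 KO (orange) lung libraries. Each point is 1 library, lines are means and bars 1 SD (WT n = 3; KO n = 2, with the mean of KO2 and KO3 as 1 sample). All KO libraries lie below all WT libraries for each gene.

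The calls of Mcpt4 and Cpa3 depended on the samples and on the fit. With an offset for gene length and GC content neither was called, with an adjusted p of 0.0878 for each. Without any 1 of WT1, WT2 and WT3, without KO1, or without KO2 and KO3 together, neither was called, with adjusted p of 0.0853 to 0.189 for Mcpt4 and 0.0945 to 0.189 for Cpa3, and Cpa3 was also not called without KO3 (0.0511). Their log2 fold changes stayed between -2.38 and -2.06 for Mcpt4 and between -2.67 and -2.16 for Cpa3 over all 18 alternatives run.

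Angiotensin-degrading peptidases other than Enpep had values in both directions. Among them Mme, Lnpep and Rnpep were picked out after their values were seen. Mme, the neprilysin that makes angiotensin 1-7 from angiotensin I, was at 88.7, 104 and 91.9 CPM in WT and at 70.5, 67.8 and 67.1 CPM in KO. Its log2 fold change was -0.46 (SE 0.08) with an adjusted p of 0.0537. Lnpep, the angiotensin IV binding aminopeptidase, was at 47.1, 65.0 and 48.1 CPM in WT and at 23.1, 35.3 and 31.3 CPM in KO. Its log2 fold change was -0.91 (SE 0.22) with an adjusted p of 0.0837. Rnpep, aminopeptidase B, was higher in every KO library, at 72.1, 73.4 and 80.1 CPM in WT and at 93.9, 89.2 and 89.0 CPM in KO. Its log2 fold change was 0.29 (SE 0.06) with an adjusted p of 0.0704.

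None of those 3 was called by edgeR's quasi-likelihood test with KO2 and KO3 combined. Over the 18 alternatives, which include KO2 and KO3 as separate samples, Mme was called in 6, Lnpep in 5 and Rnpep in 3. Long genes tended to have lower values in KO, with a Spearman rho of -0.33 between log2 fold change and exon length across 18516 genes, which are not independent replicates. Mme and Lnpep have 11542 and 14144 bases of exon. With an offset for length and GC content their log2 fold changes were -0.20 and -0.64, while that of Agt was -0.82 and that of Enpep -0.08. Thop1, which also makes angiotensin 1-7, was high in WT3 and KO1, at 37.0 and 51.6 CPM, against 19.6 to 24.8 CPM in the other libraries.

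The 5 most abundant uncalled genes of the wider list overlapped between genotypes, apart from Arap1. The lysosomal protease Ctsd was at 554 to 748 CPM over all 6 libraries (adjusted p 0.842 in edgeR's quasi-likelihood test) and Ctsa, another lysosomal enzyme, at 155 to 194 CPM (0.392). Mtus1, a partner of the type 2 receptor, was at 284 to 322 CPM (0.577), and aminopeptidase N (Anpep), which acts after Enpep, at 98.8 to 120 CPM (0.264). Arap1 was at 165 to 176 CPM in WT and at 181 to 184 CPM in KO, with a log2 fold change of 0.09 (SE 0.05) and an adjusted p of 0.356. The renin receptor Atp6ap2 and the receptor-associated protein Agtrap had log2 fold changes of -0.01 and -0.02. Ctsd, Ctsa, Mtus1, Arap1, Rnpep and Nr3c2 share exon bases with other annotated genes, and their counts are uncertain to that extent.

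Downstream of angiotensin II, aldosterone acts on the mineralocorticoid receptor Nr3c2. Of 8 genes of this branch 6 were tested, and 1 was called, lower in KO: Nr3c2, at 29.2, 27.8 and 28.9 CPM in WT and at 19.6, 20.4 and 21.1 CPM in KO. The groups were well apart, with a log2 fold change of -0.50 (SE 0.07) and an adjusted p of 0.0446 in edgeR's quasi-likelihood test. The background was 0.906% of all tested genes called lower. Beside it, the 10 cardiomyocyte markers summed to 2664 to 7442 CPM in WT and to 1388 to 1630 CPM in KO, with 9 lower in every KO library (20.7% of all tested genes), none called by edgeR's quasi-likelihood test, 7 at an unadjusted p of 0.05 or less (27.3% of all tested genes) and none at 0. The 8 alveolar type 2 markers summed to 21148 to 22119 CPM in WT and to 29936 to 31724 CPM in KO, with 3 called higher (1.38% of all tested genes) and none at 0. The part of these cells in the Nr3c2 difference was not tested. The call of Nr3c2 was lost without any 1 WT library, without KO1 and without KO2 and KO3 together (adjusted p of 0.0840 to 0.189), with the length and GC offset (0.0879) and in edgeR's exact test (0.322). The log2 fold change of Nr3c2 stayed between -0.56 and -0.39 over all 18 alternatives run. Hsd11b2, the enzyme that keeps glucocorticoids off this receptor, was at 1.42, 1.04 and 1.05 CPM in WT and at 2.32, 1.95 and 1.85 CPM in KO, with an adjusted p of 0.0900. Of the sodium channel subunits, Scnn1a was at 384 to 405 CPM in WT and at 398 to 480 CPM in KO, and Scnn1g at 162 to 175 CPM in WT and at 154 to 176 CPM in KO. Scnn1b was above WT in every KO library, at 135 to 144 CPM in WT and at 149 to 180 CPM in KO, with an adjusted p of 0.203. The aldosterone synthase Cyp11b2 had 2 counts in KO1 and 0 in the other libraries, and Cyp11b1 had 0 in all.

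Kinins are the other main substrate branch of Ace, which inactivates bradykinin. Of 10 kinin genes 9 were tested and 0 were called by edgeR's quasi-likelihood test, with 1 lower at an unadjusted p of 0.05 or less, where 2.28% of all tested genes were called and 27.3% were at such a p. The receptors were low: Bdkrb1 was at 2.18 to 2.83 CPM in WT and at 2.76 to 3.99 CPM in KO, and Bdkrb2 at 3.04 to 4.80 and 3.20 to 4.19 CPM. Cpm, a membrane carboxypeptidase that trims kinins, was at 234 to 240 CPM in WT and at 227 to 255 CPM in KO, the highest level of this branch in CPM.

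The listed genes did not move as 1 block across libraries. Over the 6 libraries Pearson's r of log2 CPM was 0.85 between Agtr1a and Enpep, 0.84 between Agt and Agtr1a and 0.81 between Agt and Enpep, whereas Ace had r of -0.14 with Agt, 0.22 with Agtr1a and 0.27 with Enpep, and 0.78 with the barely detected Agtr2. These values describe 6 libraries that include the near-identical KO2 and KO3 and carry no test. By the same measure, among about 12567 genes at 5 CPM or more, the genes most like Ace were Atf5, Tbx3 and Glrx (r from 0.995 to 0.998), and those most like Agtr1a were Zbtb5, Ednra and Nr2f1 (0.996 to 0.998). For Enpep they were Bcl2l13, Ednrb and Ccl11 (0.995 to 0.997), for Agt Sash3, Uqcc1 and Snrpn (0.986 to 0.995) and for Agtr2 Ncaph, Scap and Cpxm2 (0.991 to 0.996). With 6 points such values are common: each of the 5 genes had between 86 and 197 genes above 0.95.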

How the data were processed

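The values were raw counts of reads per gene deposited by the authors, made per the labels' processing notes with Trimmomatic 0.36, STAR 2.5.3a, Picard 2.9.0 and HTSeq 0.6.0 on mm10 (GRCm38). The annotation release and strand setting were not given in the sources used here. The study gives 1 mouse per library, but KO2 and KO3 may be 1 animal, so p-values measure only the spread between these few samples. Counts of KO2 and KO3 were summed, then genes passing filterByExpr were fitted with edgeR 4.0.16 (R 4.3.3; limma 3.58.1; TMM scaling, quasi-likelihood test, two-sided, Benjamini-Hochberg adjustment over all 18660 tested genes, called at an adjusted p of 0.05 or less). The script was tested on simulated data. Alternatives were KO2 and KO3 separate, other scalings and filters, DESeq2 1.42.0, the edgeR exact test, a replicate block, left-out libraries, a squamous term and a length and GC offset. RPKM divides CPM by the union exon length (GENCODE M21). Correlations used log2 of CPM plus 0.5. The listed genes, the wider lists and the markers were chosen with earlier results of these data known. Named genes were Zpbp2, the 6 listed genes, called genes of the wider lists, the 5 most abundant uncalled renin-angiotensin genes and, for each tested listed gene, the 3 most alike. Others named were chosen after their values were seen. Of the wider list 1 gene was counted but is not reported here. The replicate numbers did not pair the samples.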

Additional observations from a re-analysis of the deposited data

How the results depend on the processing

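Over 18 alternatives (13 for Agtr2) the log2 fold changes of Agt, Agtr1a and Enpep stayed below 0, that of Ace was above 0 in 17, and none of Ace, Agtr1a, Agtr2 and Enpep was called. The listed genes called were 1 (Agt) with KO2 and KO3 separate, with DESeq2 and without WT3 and KO1, where Agt was at -0.68, -0.65 and -0.83. Over all genes 426 were called, against 3402 with the 6 libraries separate, 3919 with DESeq2, 909 when 10 or more counts were required in each library, 209 with the edgeR exact test, 2256 without WT3 and KO1, 2390 with a squamous epithelium term and 0 with a gene length and GC offset (3970 at an unadjusted p of 0.05 or less). Leaving out single libraries gave 0 to 418 calls, 17 without KO1 and 0 without any 1 WT library, and 0 without KO2 and KO3. Library size alone called 306, of which 38.2% were higher in KO against 60.3% under TMM. The other renin-angiotensin genes called were 2, against 6, 7, 4, 6, 7 and 0 with the 6 libraries separate, DESeq2, 10 counts, without WT3 and KO1, the squamous term and the offset, and 0 to 2 with single libraries left out. With a replicate block, 1157 genes and 5 other renin-angiotensin genes were called, and 0 listed genes. Same-numbered libraries correlated at -0.48, 0.56 and -0.65, so they share only a number. The causes were not tested. Settings without KO1, or without KO2 and KO3, leave 1 KO sample, which is assumed to vary like WT. Agtr2 and Mas1 had at most 12 counts per library.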

Other observations

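The kininogen genes, whose proteins carry bradykinin, gave opposite patterns at low counts. Kng2 had 50, 142 and 8 counts in WT1 to WT3 and 9, 3 and 5 in KO1 to KO3, with an adjusted p of 0.178 in edgeR's quasi-likelihood test. Kng1 had counts of 0, 4 and 0 in WT1 to WT3 and of 2, 33 and 25 in KO1 to KO3, and was not tested. The genes are close relatives on chr16, and how the counting treated reads they share was not tested. The KO2 and KO3 libraries, which held most Kng1 counts, also held most albumin (Alb) RNA, at 24.02 and 24.9 CPM, and the part of that tissue was not tested.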
